A study of Mus musculus with 9 samples.

Results

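Genes of the lung surfactant and of the club cells of the airways were followed across microarrays of whole mouse hearts. The set holds 10 of the 30142 genes with a named probe set, chosen by name: Sftpc, Sftpb, Sftpd, Sftpa1, Napsa and Lamp3 of the surfactant-making cell, Cldn18 and Ager of the alveolar wall, and Scgb1a1 and Scgb3a2 of the club cell. They were picked with their values on these arrays known, above all those on 1 vesicle array and on the sham array, so the levels below are a description and carry no test. Each gene had a single probe set, found under its current symbol.

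All hearts came from immunodeficient nude mice with a permanent ligation of the left anterior descending artery and an ejection fraction under 50%, treated 3 weeks after the infarct and taken 6 weeks after treatment. Vesicle hearts (3 arrays) had received the extracellular vesicles that 500000 cardiovascular progenitor cells release over 48 hours, and cell hearts (3 arrays) 500000 of those cells. The sham heart (1 array) had needle punctures at 3 places without injection, and control hearts (2 arrays) had received the medium alpha-MEM. By the titles, vesicle array 1, cell array 1, the sham array and control array 1 belong to experiment 9, and vesicle arrays 2 and 3, cell arrays 2 and 3 and control array 2 to experiment 1. The titles also carry a VTS number, whose meaning they do not give: VTS3 for all of experiment 9, VTS1 for vesicle array 2, cell array 2 and control array 2, and VTS2 for vesicle array 3 and cell array 3. VTS2 thus has no control array, and vesicle array 3 is set below against both control array 2 and cell array 3. The labels do not say whether the arrays came from different animals, so p-values measure only the spread between arrays, which may be technical, and their small number limits precision.

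Surfactant is the film of lipid and protein that keeps the air sacs of the lung open. It is assembled in lamellar bodies of alveolar type 2 cells, which process the hydrophobic surfactant proteins B and C there and also secrete the collectins, surfactant proteins A and D, which bind microbes. Flat alveolar type 1 cells form the gas exchange surface, and club cells are secretory cells of the small airways whose main product is Scgb1a1. Most of these genes are textbook markers of lung epithelium, although Ager, Napsa, Lamp3 and Cldn18 are also made in some other tissues.

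The arrays were those of heart. The 11 measured genes of heart muscle cells, among them Mybpc3, Ryr2 and Ttn, all exceeded the level under which 95% of the negative control probe sets fall, on each of the 7 arrays other than vesicle array 3 and the sham array. Their median difference from those 7 arrays was −0.032 on vesicle array 3 and 0.0 on the sham array. Myl3 differed most on vesicle array 3, by −0.18, at 10.39 against 10.52 to 10.81 on the 7. The summed linear signal of the 11 genes was 48439 on vesicle array 3, below the 48922.9 to 51304.7 of the 7, and 50920 on the sham array. The negative control level ran from 7.18 to 7.28 log2 units across the 9 arrays and serves here as the background level. On vesicle array 3, 3 of the 10 lung genes exceeded it, and on each of the other 8 arrays 0 did. Below this level a value is not well above background, and differences there are given in log2 units with no fold. In whole-tissue RNA, fewer cells of a type and less RNA per cell cannot be told apart.

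**Figure D1:**
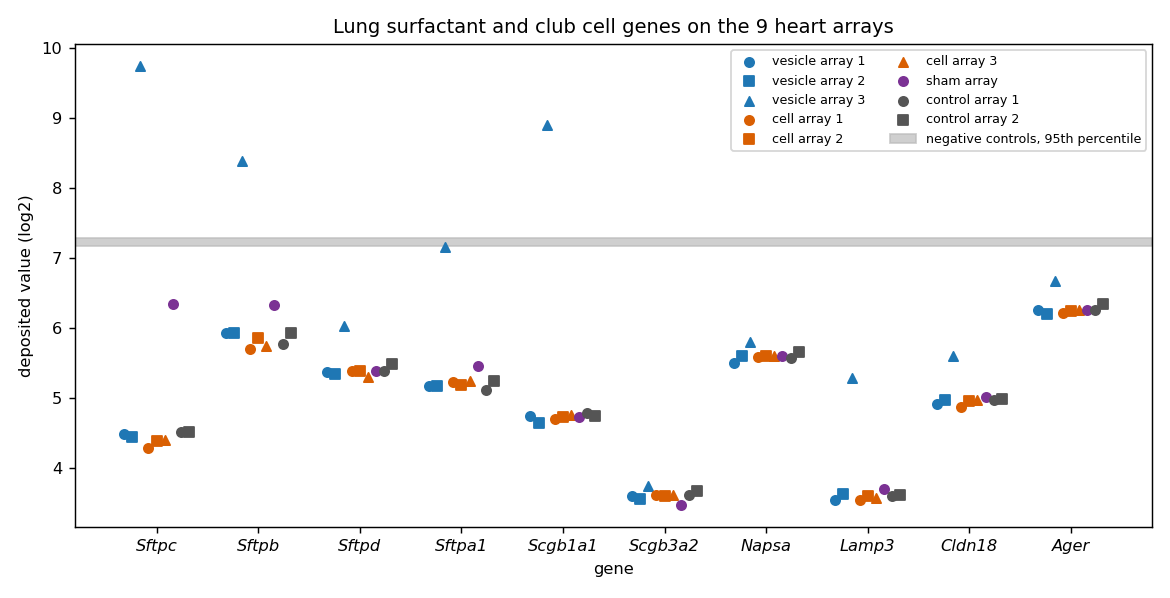
Deposited log2 values (vertical axis) of the 10 lung genes (horizontal axis), 1 point per array, with colour for the group and symbol for the array number; the grey band spans the background level of the 9 arrays, set by the negative controls. The triangle of vesicle array 3 lies above the other 8 points for every gene, by most for Sftpc at 9.75, and the sham point for Sftpc at 6.35 is the next to stand apart.

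The 4 surfactant proteins were highest on vesicle array 3, and 3 of them, Sftpc, Sftpb and Sftpa1, were next highest on the sham array. Sftpc, the small hydrophobic protein made by type 2 cells, read 4.49, 4.44 and 9.75 on vesicle arrays 1, 2 and 3, 4.28, 4.39 and 4.41 on the cell arrays, 6.35 on the sham array, and 4.51 and 4.52 on the control arrays. Vesicle array 3 was 5.31 above the median of the 7 arrays that exclude it and the sham array, and those 7 spanned 0.24. This was the largest such difference among all 30142 genes, and so was the sham array's, at 1.91. Vesicle array 3 was 5.34 above cell array 3, which shares its VTS number. Against control array 2, of the same experiment but another VTS number, it was 5.23 higher, which is at least 5.93-fold when the control is set at its background level.

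Sftpb, the hydrophobic protein needed to form lamellar bodies, read 5.93, 5.93 and 8.39 on the vesicle arrays, 5.70, 5.86 and 5.75 on the cell arrays, 6.34 on the sham array, and 5.78 and 5.93 on the control arrays. Vesicle array 3 and the sham array again lay outside the range of the others, by 2.53 and 0.48 over the median of the 7. The first difference ranked 5 and the second 83 among all genes, and vesicle array 3 was at least 2.31-fold above control array 2.

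Sftpa1 and Sftpd encode the collectins, and the pair behaved differently on the sham array. Sftpa1 read 5.18, 5.17 and 7.17 on the vesicle arrays, 5.23, 5.19 and 5.24 on the cell arrays, 5.46 on the sham array, and 5.12 and 5.24 on the control arrays. It was 1.98 above the median of the 7 on vesicle array 3 and 0.28 above it on the sham array, both outside the range of the 7. Sftpd read 5.38, 5.34 and 6.04 on the vesicle arrays, 5.39, 5.39 and 5.30 on the cell arrays, 5.39 on the sham array, and 5.39 and 5.48 on the control arrays. Only vesicle array 3 stood apart for Sftpd, by 0.65, and the sham value lay within the range of the other arrays.

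Upstream sequences of Sftpb, Sftpa1 and Lamp3 are shown. Of the 10 genes, these 3 rank among the 7 highest on vesicle array 3 and have a RefSeq entry. Cxcl15 and Slc34a2, which are not among the 10, also rank there and have an entry, but are not shown. NKX2-1 and forkhead factors are known regulators of surfactant protein genes. RefSeq promoters (build GRCm38.p6) were matched by symbol for 5 of the 10 genes, with 6 start sites. Each line gives the 250 bases before the annotated start, 5′ to 3′ on the gene's strand, in lower case. Capitals mark CTCAAG, a form of the NKX2-1 site, and TGTTTNC, a form of the forkhead site, on either strand; the marked sites do not overlap. Sftpb lies at chr6:72304360-72304609 on the plus strand, Sftpa1 at chr14:41131538-41131787 on the plus strand and Lamp3 at chr16:19706366-19706615 on the minus strand.
Sftpb: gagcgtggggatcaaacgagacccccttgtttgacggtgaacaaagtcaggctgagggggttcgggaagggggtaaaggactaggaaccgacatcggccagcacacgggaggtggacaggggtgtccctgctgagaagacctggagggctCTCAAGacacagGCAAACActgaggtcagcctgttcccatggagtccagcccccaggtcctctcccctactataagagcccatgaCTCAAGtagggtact
Sftpa1: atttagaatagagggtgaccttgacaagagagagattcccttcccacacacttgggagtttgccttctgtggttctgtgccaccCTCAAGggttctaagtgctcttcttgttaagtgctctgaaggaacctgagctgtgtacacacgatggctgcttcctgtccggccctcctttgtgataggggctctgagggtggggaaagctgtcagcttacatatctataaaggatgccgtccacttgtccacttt
Lamp3: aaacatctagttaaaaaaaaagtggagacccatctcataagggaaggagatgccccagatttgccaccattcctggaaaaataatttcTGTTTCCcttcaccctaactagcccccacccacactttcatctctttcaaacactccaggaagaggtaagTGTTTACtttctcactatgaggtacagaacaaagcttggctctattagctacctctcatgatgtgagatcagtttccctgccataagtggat

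The NKX2-1 letters occurred in 2 of the 6 promoters, at 2 places before Sftpb and 1 before Sftpa1, and in 13.3% of 32851 promoter windows of the same length. The forkhead letters occurred in 4 of the 6, before Sftpb, Lamp3 and at both starts of Cldn18, and in 17.8% of all windows. Of the other genes high on vesicle array 3, Cxcl15, Slc34a2 and Muc1 had neither motif in this window, and Cbr2, the carbonyl reductase of mouse lung, had 1 forkhead match. The motifs were chosen by the name of the factor after the files were in hand, and a match is a description, not a site shown to be bound. The transcript of Nkx2-1 itself read 5.70 on vesicle array 3 and 5.74 on the sham array, within the 5.65 to 5.82 of the other 7. Foxa2, a forkhead factor of lung and gut epithelium, read 5.72 and 5.74 on these arrays and 5.63 to 5.89 on the others. Both transcripts lay below background on every array.

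Genes of surfactant processing followed only in part. Lamp3, a membrane protein of lamellar bodies that is also found in dendritic cells, read 3.54, 3.62 and 5.29 on the vesicle arrays, 3.54, 3.60 and 3.57 on the cell arrays, 3.69 on the sham array, and 3.60 and 3.61 on the control arrays. It was 1.69 above the median of the 7 on vesicle array 3, rank 7 of all genes, and 0.092 above it on the sham array, just outside the range of the 7. Napsa, the aspartic protease that trims the precursors of surfactant proteins B and C, read 5.51, 5.61 and 5.80 on the vesicle arrays, 5.58, 5.61 and 5.61 on the cell arrays, 5.61 on the sham array, and 5.58 and 5.65 on the control arrays. Its difference of 0.19 on vesicle array 3 ranked 716 of 30142, and the sham array did not stand apart.

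The alveolar wall genes showed small differences in the same direction. Cldn18, a tight junction claudin of lung and stomach, read 4.92, 4.97 and 5.60 on the vesicle arrays, 4.87, 4.96 and 4.97 on the cell arrays, 5.02 on the sham array, and 4.97 and 4.99 on the control arrays. Ager, the receptor for advanced glycation end products and a marker of type 1 cells, read 6.27, 6.21 and 6.67 on the vesicle arrays, 6.22, 6.25 and 6.27 on the cell arrays, 6.27 on the sham array, and 6.27 and 6.35 on the control arrays. Vesicle array 3 was 0.63 above the median of the 7 for Cldn18 and 0.41 for Ager. The sham array was 0.051 above it for Cldn18, just outside the range of the 7, and for Ager it held the same value as 3 other arrays.

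Club cell genes divided the 2 arrays. Scgb1a1, the main secretoglobin of the club cell, read 4.74, 4.64 and 8.90 on the vesicle arrays, 4.70, 4.74 and 4.76 on the cell arrays, 4.73 on the sham array, and 4.79 and 4.74 on the control arrays. On vesicle array 3 it was 4.16 above the median of the 7, second only to Sftpc, and at least 3.29-fold above control array 2. The sham array, next to vesicle array 3 in Sftpc, had Scgb1a1 within the 4.64 to 4.79 of the others. Scgb3a2, a related airway secretoglobin, read 3.60, 3.56 and 3.75 on the vesicle arrays, 3.62, 3.60 and 3.62 on the cell arrays, 3.47 on the sham array, and 3.61 and 3.67 on the control arrays. Vesicle array 3 was highest here too, but by only 0.074 over control array 2, and the sham array was the lowest of the 9.

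The spread among the 10 genes, as the largest minus the smallest difference from the median of the 7, was 5.17 on vesicle array 3, 2.05 on the sham array, where Sftpc sets it, and 0.055 to 0.205 on the other 7. The difference from the median of the 7 was at least 0.5 for 7 of the 10 and at least 1 for 5 of them, against 0.408% and 0.169% of all 30142 genes, and all 10 lay above the highest of the 7, as did 8.48% of all genes. On the sham array 1 of the 10, Sftpc, was at least 0.5 and also at least 1 higher, against 0.146% and 0.0199% of all genes, and 5 lay above the highest of the 7 (Sftpc, Sftpb, Sftpa1, Lamp3 and Cldn18), against 8.18% of all genes. These arrays entered the choice of the genes, so nothing is read from those shares. The mean of the 10 genes after centring each on its mean over the 9 arrays was 1.55 on vesicle array 3, 0.048 on the sham array and between −0.27 and −0.17 on the other 7. Of 18820 protein-coding genes, 11 were at least 1 higher on vesicle array 3 than the median of the 7, and these were 5 of the 10 genes and 6 on the lists of lung epithelial markers below, which were chosen with results known. A further 40 genes that are not protein-coding passed the same mark: 39 gene models with only 6 different value profiles between them, and 1 microRNA, all at 5.03 to 5.73 and so below background. On the sham array 5 protein-coding genes passed, of which 1, Sftpc, is among the 10, and 1 other gene.

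**Figure D2:**
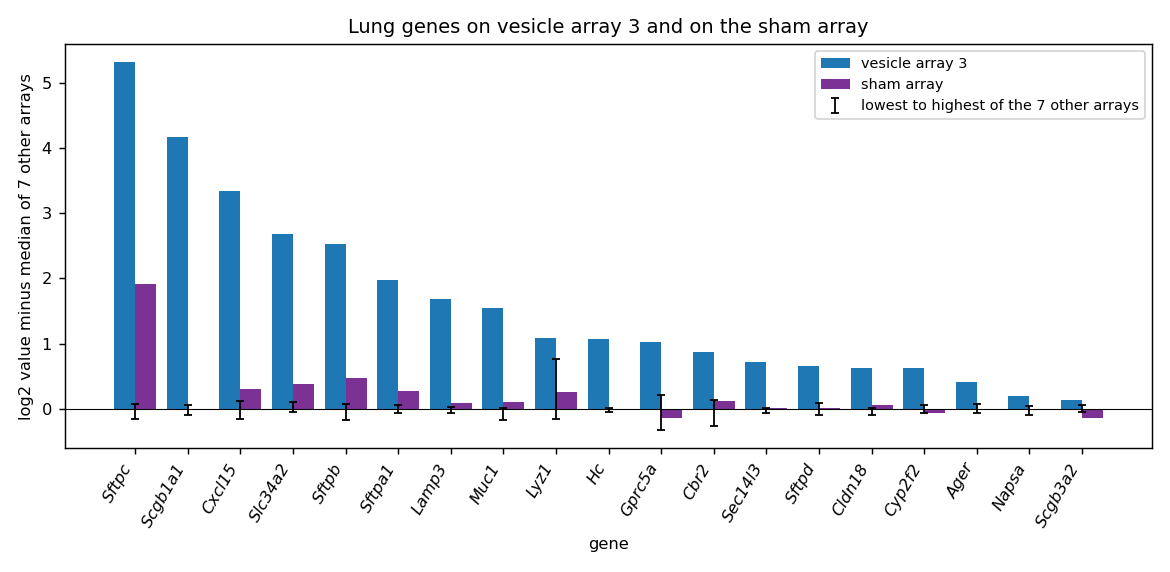
Log2 value on vesicle array 3 (blue) and on the sham array (purple) minus the median of the 7 other arrays (vertical axis) for the 10 lung genes and 9 further markers of lung epithelium (horizontal axis); black bars run from the lowest to the highest of the 7. The 9 were picked for lying at least 0.5 higher on vesicle array 3, and the other genes of the lung epithelial lists are not drawn. Blue bars reach 5.31 for Sftpc and 4.16 for Scgb1a1, whereas the purple bar is 1.91 for Sftpc and −0.005 for Scgb1a1.

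Markers of other lung cells were examined in 7 lists chosen by name, with earlier results of these data known. Their counts are thus a description. Of 18 measured genes of type 2 cells and surfactant handling, 5 were at least 0.5 above the median of the 7 on vesicle array 3 (0.408% of all genes) and 0 on the sham array (0.146% of all genes). Cxcl15 read 7.35 on vesicle array 3, 4.31 on the sham array and 3.85 to 4.13 on the other 7. Slc34a2 read 7.36 on vesicle array 3, 5.06 on the sham array and 4.62 to 4.78 on the other 7. Both arrays thus lay above the range of the 7 for these genes, ranks 3 and 4 of all genes on vesicle array 3. Muc1, a membrane mucin, was 1.54 higher on vesicle array 3, Lyz1, a lysozyme, 1.08 and Hc, complement component 5, 1.06. Muc1 and Hc lay below background on every array. Lyz1 and its near-identical neighbour Lyz2 may share probe signal, and for Lyz1 the other 7 arrays already ran from 7.47 to 8.39. Hc and Abca3 were singled out after their values were seen. The median of the list was 0.19 on vesicle array 3, against 0.0 for all genes. Abca3, the lipid transporter of lamellar bodies, was 0.16 higher. Foxa1 read 4.93 against 4.78 to 5.09, below background on every array.

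The remaining lung lists gave few such genes, where 0.408% of all genes passed 0.5 on vesicle array 3. Of the raised genes named here, Cbr2 alone exceeded background on any array. Of 12 type 1 cell genes 1 passed 0.5, Gprc5a, an orphan receptor of lung epithelium, at 1.02, and Aqp5, a water channel, was at 6.27 within the 6.05 to 6.35 of the 7. Of 14 club and secretory genes 2 passed, Cbr2, the carbonyl reductase of mouse lung (8.85 against 7.72 to 8.13), and Cyp2f2, the club cell cytochrome P450 (5.62 against 4.93 to 5.05). The sham array lay within the range of the 7 for Cbr2 and at its lower edge, 4.93, for Cyp2f2. Of 14 ciliated cell genes 1 passed, Sec14l3, a lipid-binding protein, by 0.71. Among 11 genes of lung stroma and vessels 1 passed, Inmt, an N-methyltransferase abundant in lung, by 0.54, and Npnt and Itga8, a matrix ligand and its integrin partner, were 0.50 and 0.49 higher. General epithelial genes passed in 0 of 12, with Cdh1, the epithelial cadherin, 0.42 and Krt8, a simple keratin, 0.27 higher. Alveolar macrophage genes passed in 0 of 8, and Marco, their scavenger receptor, read 5.71 on both arrays, as on most others. That list named 11 genes, and those not measured could not be judged. Aqp5 and Marco lay below background on every array.

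Among measured markers of other tissues near the heart, only mesothelium, the lining of heart and lung surfaces, had genes that passed 0.5 on either array. On vesicle array 3, 6 of 7 mesothelial genes lay above the highest of the 7 arrays, against 8.48% of all genes. The median difference of the 7 genes was 0.39, and 1 passed 0.5: Muc16, a membrane mucin, at 5.43 against 4.64 to 4.96. On the sham array 3 of 7 lay above that highest value, against 8.18% of all genes. Upk1b, a uroplakin, led these at 6.70 against 5.62 to 5.99. Wt1 went the other way on the sham array, at 6.44 against 6.47 to 6.96. On vesicle array 3 Wt1 read 6.77, within that range. All 7 mesothelial genes lay below background on every array. The summed linear signal of the mesothelial genes was 515.8 on vesicle array 3, 458.2 on the sham array and 379.5 to 448.4 on the other 7. Their part in the lung gene values was not tested. Genes of thymus, brown and white fat, fast skeletal muscle, liver, stratified epithelium, cartilage and red blood cells passed 0.5 in 0 of 53 on either array. These are measured genes only, and all but Cidea of brown fat and Alas2 of red blood cells lay below background on every array. Over all genes 0.408% passed on vesicle array 3 and 0.146% on the sham array, so nothing is read from this 0. For red blood cells 2 of 6 listed genes were measured, with no haemoglobin gene among them. The summed signal of the 10 lung genes was 2142 on vesicle array 3, 457.5 on the sham array and 352.5 to 381.5 on the other 7.

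**Figure D3:**
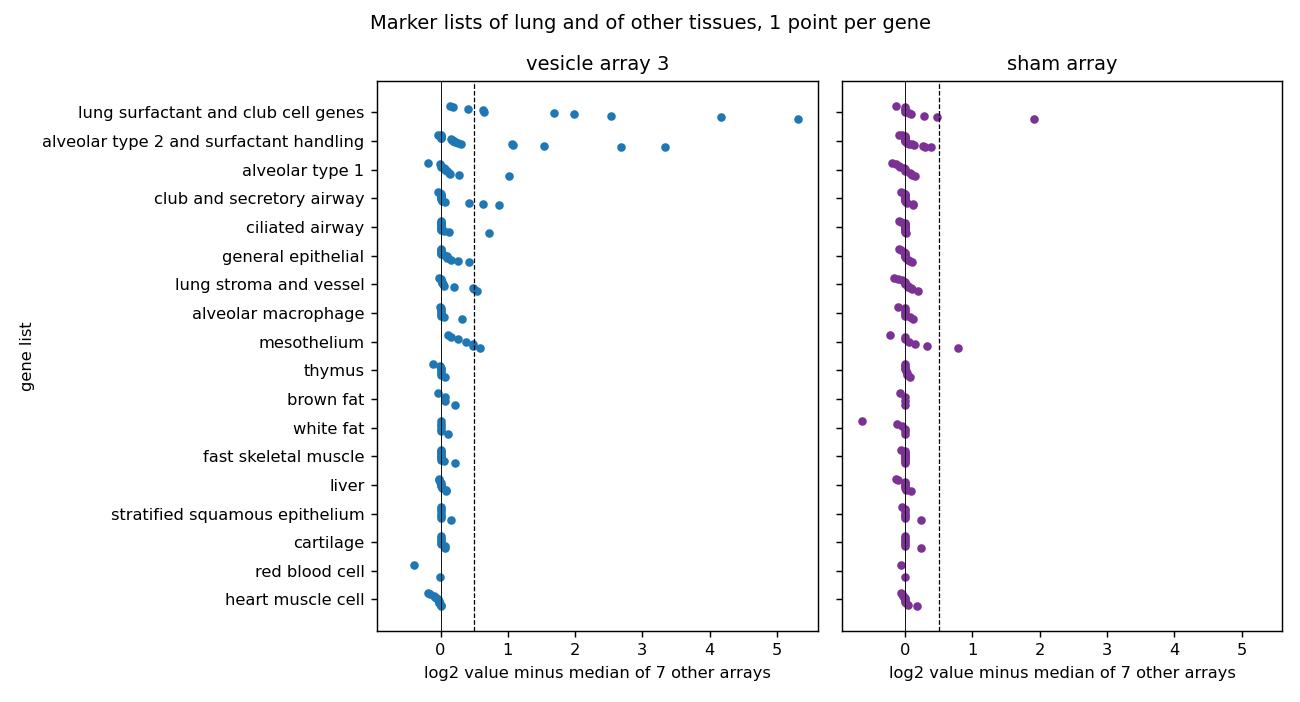
Log2 value minus the median of the 7 other arrays (horizontal axis) on vesicle array 3 (left) and on the sham array (right), 1 point per gene, for the 10 lung genes and 17 marker lists (vertical axis); the dashed line is at 0.5. On vesicle array 3 points beyond 1 occur for the lung genes and the type 2 and type 1 lists, and on the sham array only for Sftpc at 1.91.

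Genes with the most similar profile were taken by Pearson correlation over the 9 arrays with the centred mean of the 10 genes, among 133 other genes that exceeded background on some array and ranged over at least 1 log2 unit. Slc34a2 (r = 0.999), Cxcl15 (0.993) and Cbr2 (0.919) led, followed by Lyz1 (0.767) and Lyz2, the macrophage lysozyme (0.658). The next named genes were C4b, complement component 4 (0.599), Scd1, stearoyl-CoA desaturase (0.547), Zbtb16, a zinc finger factor (0.546), Fstl4 (0.489) and Mt2, metallothionein 2 (0.431), and 5 gene models complete the 15. Slc34a2 and Cxcl15 exceeded background on 1 array alone, vesicle array 3, and so entered through the array on which they were high. Among the other named genes, Cbr2, Lyz1, Lyz2 and C4b ranged over less than 1 log2 unit without that array. They too entered only through it, so their r was in part set by this choice. That array is 1 high point shared by all these profiles. Over the 7 arrays without it and the sham array, r was 0.738 for Slc34a2, −0.153 for Cxcl15, 0.203 for Cbr2, 0.811 for Lyz1 and 0.738 for Lyz2; the values of Slc34a2 and Cxcl15 there all lie below background. The centred mean of the 10 genes spanned only −0.272 to −0.167 on those 7 arrays, and all 10 lay below background there. These correlations are descriptions of 9 arrays and carry no p.

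The treatment comparisons ask whether hearts given vesicles or cells differed from hearts given medium, and in limma's fit over all genes 0 of the 10 lung genes passed an adjusted p of 0.05 in any of them, where 0.0% of 30142 genes did. At an unadjusted p under 0.05 the count was 0 of 10 as well, and least squares without moderation also called 0 of 10. Over all genes, 1942 had an unadjusted p under 0.05 for vesicles against control, 2029 for cells against control and 1309 for vesicles against cells. For vesicles against control, Sftpc averaged 6.23 and 4.52 and differed by 1.54 ± 1.66 (SE; 3 and 2 arrays; limma adjusted p = 0.824). Scgb1a1 differed by 1.20 ± 1.33 (adjusted p = 0.828), Sftpb by 0.81 ± 0.76 (adjusted p = 0.792), Sftpa1 by 0.59 ± 0.62 and Lamp3 by 0.48 ± 0.53. The standard error exceeded the difference for Sftpc, Scgb1a1, Sftpa1 and Lamp3 and was slightly below it for Sftpb, and 9 of the 10 were above 0 with a median of 0.32. This comparison contains vesicle array 3, which took part in the choice of the genes, so its direction is a description. With the VTS number as block in place of the experiment, an alternative chosen after seeing the data, Sftpc differed by 0.82 ± 1.40 for vesicles against control and by −1.05 ± 1.40 for cells against control, and limma again called 0 of the 10 and 0 of all genes.

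Without vesicle array 3 the vesicle differences fell near 0. Sftpc then differed from control by −0.052 ± 0.048, Scgb1a1 by −0.080 ± 0.043 and Sftpb by 0.074 ± 0.057, and all 10 lay between −0.080 and 0.074 with a median of −0.055 (limma adjusted p from 0.808 up, 0.0% of all genes called). The standard error of Sftpc was thus 1.66 with that array and 0.048 without it.

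Cells against control is the comparison that includes neither array named in the choice of the genes, and no lung gene passed in it. All 10 differences were below 0, from −0.32 for Sftpc (± 1.66) to −0.029 for Sftpa1 (± 0.62), with a median of −0.088 and limma adjusted p from 0.915 up. Vesicle array 3 still enters this fit, through the experiment term and the common error. Without that array Sftpc differed by −0.165 ± 0.044, with 1 of 10 at an unadjusted p under 0.05, as had 5.2% of all genes, and 0 of 10 past the adjusted threshold (limma adjusted p = 0.789 for Sftpc). For vesicles against cells the 10 differences ran from 0.023 to 1.87 with vesicle array 3 and from −0.049 to 0.174 without it; 0 of 10 passed in either case, with 0 and 1 of 10 at an unadjusted p under 0.05, the second beside 4.19% of all genes.

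**Figure D4:**
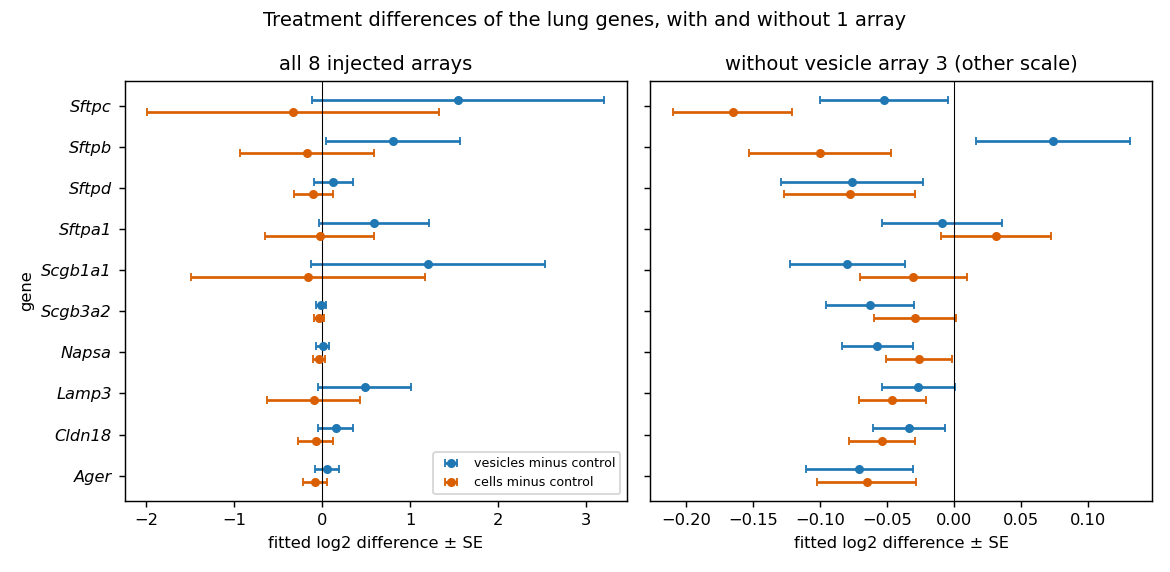
Fitted log2 difference with its standard error (horizontal axis) for each lung gene (vertical axis), vesicles minus control in blue and cells minus control in orange, from all 8 injected arrays (left) and without vesicle array 3 (right); the panels have different scales. Sftpc stands at 1.54 ± 1.66 after vesicles on the left and at −0.052 ± 0.048 on the right.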

How the data were processed

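RNA from whole frozen hearts was extracted with Trizol and, per the labels, labelled for Affymetrix whole-transcript arrays. The deposited values are 1 expression summary per probe set and array, read as log2 from their narrow, never negative range; how the authors summarised and normalized them, and the log base, the sources used here do not say. The submitters' processing notes name Partek only. Normalization between arrays hides changes common to most genes.

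Of 80202 probe sets, 30604 had 1 gene symbol in the platform table (symbols updated through Entrez numbers with RefSeq, GRCm38.p6) and 2146 several, which were not used; the brightest probe set per gene left 30142 genes. Many values are tied: 61.1% of genes hold the same value on 3 or more arrays, which narrows their spread.

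Groups follow the treatment label, and array numbers within a group only name arrays. Differences were fitted with lmFit and eBayes (limma 3.58.1, R 4.3.3) on 8 arrays with experiment (not the VTS number, which nests in it) as a block, two-sided, Benjamini-Hochberg over all genes; values after ± are SE. The fit was tested on simulated data. Single arrays were compared by value only. The genes, marker lists and alternatives were chosen with earlier results of these data known. Named genes are the 10, up to 4 per marker list highest on vesicle array 3, markers defining a cell type, and the 15 of most similar profile. Hc, Abca3, Myl3 and Wt1 were added after their values were seen. Alternatives left out each array, dropped the block, added the sham array as a group, centred or quantile-normalized the arrays, averaged probe sets, kept the brighter 50% of genes, or omitted moderation; the VTS number as block was added after seeing the data.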

Additional observations from a re-analysis of the deposited data

Results flagged for a closer look

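For 3 of the lung genes the vesicle or the cell array of experiment 9 lay on the opposite side of its control array from that treatment's arrays in experiment 1. Experiment 9 holds a single array per treatment. These differences between experiments were not tested. Lamp3 after vesicles was −0.065 from control in experiment 9, and 0.011 (vesicle array 2) and 1.677 (vesicle array 3) in experiment 1. Scgb3a2 after cells was 0.011 from control in experiment 9, and −0.077 and −0.054 in experiment 1. Napsa after cells was 0.008 in experiment 9, and −0.047 on both cell arrays of experiment 1. All but the 1.677 of Lamp3 compare arrays that belong to the 7 other than vesicle array 3 and the sham array. They therefore cannot exceed the 7-array range of the gene concerned, and nothing is read from that. All 3 genes lie below background on every array.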

How the results depend on the processing

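No lung gene passed in any comparison under any alternative run. Of 459 recomputed differences for the 10 genes in 3 comparisons, 35 changed sign and none of those passed; the cause was not tested. On leaving out arrays one at a time, the vesicle difference from control ran from −0.052 to 2.60 for Sftpc, −0.077 to 0.27 for Sftpd, −0.0090 to 0.99 for Sftpa1, −0.080 to 2.05 for Scgb1a1, −0.063 to 0.032 for Scgb3a2, −0.057 to 0.063 for Napsa, −0.027 to 0.83 for Lamp3, −0.034 to 0.28 for Cldn18 and −0.071 to 0.16 for Ager. For all of these but Scgb3a2 the sign turned without vesicle array 3; Napsa also turned without cell array 1 or control array 2, and Scgb3a2 without vesicle array 1 or 2 or control array 2. The cell difference ran from −1.06 to 0.29 for Sftpc, −0.46 to 0.064 for Sftpb, −0.28 to 0.14 for Sftpa1, −0.75 to 0.34 for Scgb1a1, −0.35 to 0.12 for Lamp3 and −0.19 to 0.025 for Cldn18, each turning without control array 1 and Sftpa1 also without vesicle array 1 or 3 or cell array 2 or 3. Leaving out either control array leaves 1, whose spread is then taken from the other groups. Over all genes, the fit without control array 1 called 823 for vesicles and 901 for cells against control, the fit without control array 2 called 0 and 0, as did that with all 8 arrays, and least squares gave 4 for vesicles against control. Vesicles against cells ran from −0.040 to 1.06 for Sftpa1, −0.049 to 2.29 for Scgb1a1, −0.034 to 0.071 for Scgb3a2, −0.031 to 0.087 for Napsa and −0.0055 to 0.25 for Ager, each turning without vesicle array 3. Sftpa1 after cells was 0.036 without the experiment term, 0.00098 with arrays centred and 0.0049 after quantile normalization, and with the VTS number as block, Napsa and Ager after vesicles were −0.020 and −0.0030. Scgb3a2 after vesicles was 0.0095 with arrays centred and 0.012 after quantile normalization.

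The mean of the 10 genes on vesicle array 3 minus control array 2 was 1.72 log2 units, 1.75 with arrays centred, 1.76 after quantile normalization, 1.78 against the median of 7 arrays and 1.15 as a median over genes. For the sham array minus control array 1 it was 0.27, and 0.098 as a median over genes. Keeping the brighter 50% of genes left 3 of the 10. Values under the negative control level limit all but 3 of the genes on vesicle array 3 and all 10 on the other arrays.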
